A study of Mus musculus with 6 samples.

Results

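The genes described are 10 rows of a table of 23282 genes: the interleukin-1 ligands Il1a and Il1b, their antagonist Il1rn, the receptor genes Il1r1, Il1r2 and Il1rap, the related cytokine Il18, and the inflammasome genes Nlrp3, Casp1 and Pycard. They were listed by name for their place in this pathway, not by measured values, and all 10 passed the filter on low counts, as did 9963 genes in all. RNA was measured in alveolar macrophages, the resident phagocytes of the air spaces, sorted from mouse lung as cells positive for CD45, CD11c, F4/80 and SiglecF and negative for CD11b. One group was wildtype (WT) and the other carried floxed Sdha alleles together with LysM-Cre (Sdha-KO), a Cre driver that acts in myeloid cells at large and not in alveolar macrophages alone. Each group had 3 libraries, and each of 3 labelled batches held 1 library of each genotype under the same replicate number. The labels used here give no treatment, age, sex or number of mice per library, and a p-value therefore reflects library-to-library spread that may be technical in part. Values of a genotype are listed in the order of its replicates 1 to 3.

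Interleukin-1 is made in 2 forms, both bound by the receptor that Il1r1 encodes together with its accessory chain from Il1rap. The product of Il1rn occupies the same receptor without signalling, and that of Il1r2 is a decoy that binds interleukin-1 and cannot signal. Interleukin-1β and interleukin-18 are made as inactive precursors and cut by caspase-1 (Casp1), which is activated in inflammasomes, complexes of a sensor such as NLRP3 with the adaptor ASC (Pycard). Succinate, the substrate of the enzyme that Sdha encodes a subunit of, is known to raise Il1b transcription in stimulated macrophages through the hypoxia-inducible factor HIF-1α, which is why these genes are of interest in Sdha-KO cells. Macrophages hold Il18 RNA at rest, while Il1b is induced by inflammatory stimuli.

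Sequences upstream of 3 of the genes are shown first, for the ligand at the centre of that link, for the gene with the largest fitted difference and for the protease gene with lower levels. Each is a RefSeq promoter window of GRCm38.p6, 250 bases before to 50 bases after an annotated start, written 5′ to 3′ on the gene's strand. Capitals mark every ACGTG on either strand, the short core shared by HIF sites and E-boxes. The Il1b window lies at chr2:129371090-129371389 (minus strand), that of Il1r2 at chr1:40085843-40086142 (plus strand) and that of Casp1 at chr9:5298267-5298566 (plus strand). All 10 genes are protein-coding in GENCODE M21 (mm10). On chromosome 2, Il1b spans 129364570 to 129371139 and Il1a 129299610 to 129309972 (both minus strand), and Il1rn spans 24336853 to 24351494 (plus strand). On chromosome 1, Il1r2 spans 40074079 to 40125231 and Il1r1 40225080 to 40317257 (both plus strand). The RefSeq Il1r2 window thus lies inside the longer GENCODE span of its gene. On chromosome 9, Casp1 spans 5298517 to 5307265 and Il18 50554827 to 50581840 (both plus strand). Il1rap spans 26581704 to 26730117 of chromosome 16 (plus strand), Nlrp3 59541568 to 59566956 of chromosome 11 (plus strand) and Pycard 127989708 to 127993867 of chromosome 7 (minus strand).
Il1b: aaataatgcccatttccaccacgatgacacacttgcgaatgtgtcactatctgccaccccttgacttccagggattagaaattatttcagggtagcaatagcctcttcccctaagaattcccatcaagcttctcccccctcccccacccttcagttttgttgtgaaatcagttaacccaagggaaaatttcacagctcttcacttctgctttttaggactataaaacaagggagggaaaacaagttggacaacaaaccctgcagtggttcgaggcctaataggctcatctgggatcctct
Il1r2: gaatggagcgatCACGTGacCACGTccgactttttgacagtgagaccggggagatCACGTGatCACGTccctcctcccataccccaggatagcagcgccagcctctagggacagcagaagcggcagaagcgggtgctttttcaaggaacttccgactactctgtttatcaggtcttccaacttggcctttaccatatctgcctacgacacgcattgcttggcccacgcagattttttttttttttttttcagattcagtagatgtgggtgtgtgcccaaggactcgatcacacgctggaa
Casp1: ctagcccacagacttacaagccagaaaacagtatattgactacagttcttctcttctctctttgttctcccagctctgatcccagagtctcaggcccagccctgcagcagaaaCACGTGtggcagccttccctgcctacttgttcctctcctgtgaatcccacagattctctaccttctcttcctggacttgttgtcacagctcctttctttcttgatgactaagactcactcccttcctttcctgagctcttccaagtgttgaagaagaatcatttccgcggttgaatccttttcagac
The Il1r2 window held 6 matches over both strands, with first bases between 238 and 187 bases upstream of the start. They include 2 copies of the palindrome CACGTG, each counted on both strands. Of 32851 promoter windows of the same length, 33 held at least 6, a number chosen after the Il1r2 window was seen, and 19.6% held at least 1. The Casp1 window held 2 matches that overlap in the palindrome CACGTG, and the Il1b window held none. Sequence further than 250 bases upstream was not searched for any gene. All 10 genes had an entry, with 14 windows in all, and 5 of the 14 held ACGTG. These were the windows of Il1r2, Casp1 and Il1rap and 1 window each of Il1r1 and Nlrp3. The AP-1 motif TGANTCA was present in the Il1a window, 12 bases upstream of the start, and in 1 window of Il1rn, against 7.81% of all windows. The NF-kB consensus was present in 1 window of Il1r1 and 1 of Nlrp3, against 4.51%. A match describes letters only, and factor binding was not measured.

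Total counts ranged from 5400160 to 8472907 per library. Sdha, the targeted gene, had 457, 295 and 567 raw counts in WT against 313, 113 and 153 in Sdha-KO. Scaled to library size and composition, every Sdha-KO library lay below every WT library, as for 9.27% of tested genes. Sdha did not pass the test (edgeR adjusted p = 1.00). The floxed exons are not named in the labels and 3′ reads need not cover them, so Sdha counts check the genotype only in part. The batch 1 libraries stood apart. Of the 9963 tested genes, 26.4% were at 0 in the WT library of batch 1 and 48.9% in its Sdha-KO library, so the main comparisons are also given for batches 2 and 3 alone. In those batches the mix of sexes moved with genotype, with 4608 and 6055 counts of the female-expressed Xist and 0 and 143 of the Y-linked Ddx3y in WT against 498 and 822 of Xist and 354 and 432 of Ddx3y in Sdha-KO, and there genotype and sex cannot be told apart. Batch 1 had the opposite arrangement, with 0 Xist and 222 Ddx3y counts in WT against 2683 and 0 in Sdha-KO. There Il1a, Il1b, Il1rn, Il18 and Casp1 differed in the same direction as in batches 2 and 3. For Il1a and Casp1 this rested on a count of 0 in 1 library. Nlrp3 and Pycard differed in the opposite direction, and the receptor genes had no count. Batch 1 held 1 library per genotype, and an effect of sex was not tested. Summed levels of 14 alveolar macrophage markers were 7691 to 9160 CPM (counts scaled to library size and composition) in WT and 6878 to 8857 CPM in Sdha-KO libraries, sums of which Chil3 alone made up 3507 to 5424 CPM. Members went both ways. Siglecf, Ear2, Krt79 and Cidec lay below WT in all 3 Sdha-KO libraries (9.27% of tested genes did), and Car4 lay above (5.04%). In the fit of batches 2 and 3 blocked on the replicate number, 5 of 14 were lower and 2 higher past the threshold. Of all genes tested there, 1.36% were lower and 1.65% higher. Siglecf, whose product was used for the sort, had 103, 138 and 132 CPM in WT against 0, 39.6 and 45.3 CPM in Sdha-KO. Itgam, the gene of CD11b, for which sorted cells were negative, had 9.80, 7.32 and 1.40 CPM in WT against 0, 35.3 and 22.5 CPM in Sdha-KO. Its log2 fold change in batches 2 and 3 was 2.76 (edgeR adjusted p = 0.363).

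Sdha-KO libraries held more RNA of Il1b and Il1rn and less of Il18 and Casp1 than WT libraries, with no overlap between the 3 libraries of each genotype for these 4 genes. Il1b was 3.03-fold and Il1rn 1.67-fold higher in the fit, and Il18 was 2.13-fold and Casp1 3.31-fold lower. Il1r2, the decoy receptor gene, was 12.1-fold higher in the fit, from batches 2 and 3 only. None of the 10 genes passed edgeR's quasi-likelihood test over all genes (adjusted p = 1.00 for each), and 0.0502% of tested genes did (0.0401% higher and 0.01% lower in Sdha-KO). At an unadjusted edgeR p under 0.05 stood 2 of the 10, Il1b and Il18, beside 2.64% of tested genes. DESeq2 and limma-voom also passed 0 of 10 after adjustment and 2 of 10 before it, where 332 and 860 of the 9963 tested genes stood at an unadjusted p under 0.05. Of all tested genes, 5.04% had every Sdha-KO library above every WT library and 9.27% had every one below, beside 2 of these 10 in each direction.

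**Figure D1:**
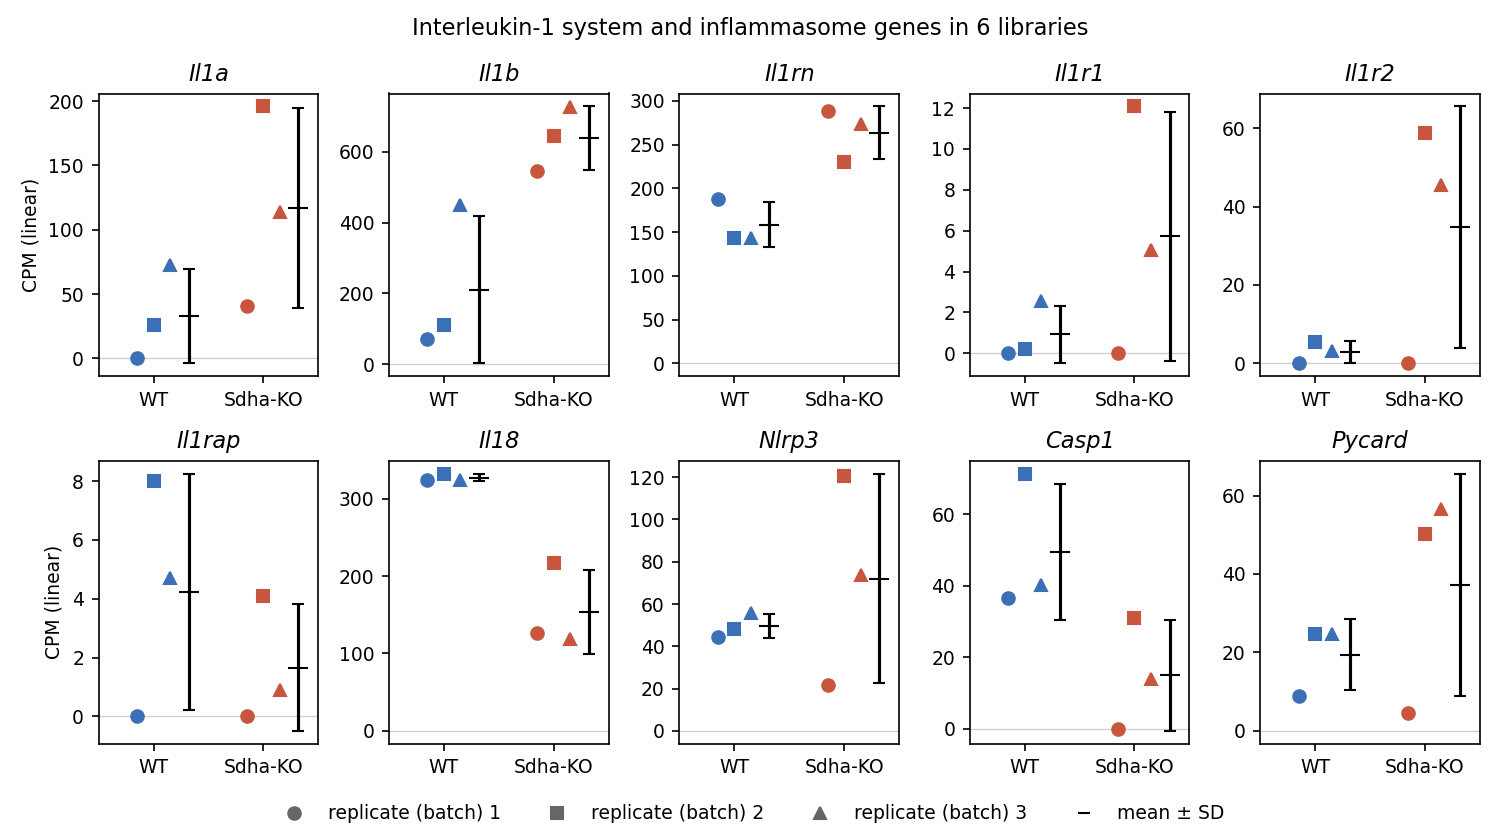
Composition-scaled CPM (linear axis, own scale per panel) of the 10 genes in WT and Sdha-KO libraries; each point is 1 library, its shape gives the replicate and batch number, and bars are mean ± SD (n = 3). Il1b and Il1rn lie higher in all 3 Sdha-KO libraries, Il18 and Casp1 lower, and circles (batch 1) are at 0 for Il1r1, Il1r2 and Il1rap in both genotypes.

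Il1b encodes interleukin-1β. It had 580, 500 and 3524 counts in WT against 6523, 3460 and 4862 in Sdha-KO. In CPM these were 71.1, 111 and 449 against 544, 643 and 725, so that WT replicate 3 stood near the Sdha-KO libraries and far from the other 2 WT libraries. The means were 210 ± 207 and 637 ± 90.3 CPM (SD, n = 3), and Il1b ranked 424 among the tested genes by mean level in WT and 99 in Sdha-KO. Within batches, Sdha-KO was 7.66-fold, 5.80-fold and 1.62-fold higher in batches 1 to 3. The fitted log2 fold change was 1.60 (SE 0.626, edgeR adjusted p = 1.00). It was 1.30 in batches 2 and 3 (SE 0.542, edgeR adjusted p = 0.472). Without WT replicate 3 it was 2.81, and Il1b then passed (edgeR adjusted p = 0.00152). It also passed with no filter on low counts (log2 fold change 1.63, edgeR adjusted p = 0.00323), and its adjusted p over the other 13 alternatives ran from 0.127 to 1.00. Exons of the antisense gene Il1bos overlap those of Il1b, and that row held between 0 and 9 counts per library.

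Il1a encodes interleukin-1α, the form that is active without caspase-1 and is released by dying cells. Its counts were 0, 118 and 571 in WT against 491, 1054 and 764 in Sdha-KO, or 0, 26.2 and 72.7 CPM against 41.0, 196 and 114 CPM. Sdha-KO replicate 1 lay below WT replicate 3, so the groups overlapped, although Sdha-KO was higher within each batch. The log2 fold change was 1.83 (SE 1.73), and 1.65 (SE 0.503, edgeR adjusted p = 0.335) in batches 2 and 3. The count of 0 in WT replicate 1 allows up to 0.368 CPM, for counting error only. Of 454 other genes with at least the Il1a count in each library of batches 2 and 3, 0 were without a count in WT replicate 1. The Il1a count is uncertain, because exons of Gm14023 overlap it on the other strand. That row had 40, 167 and 719 counts in WT and 1031, 996 and 823 in Sdha-KO libraries, and the use of strand in counting is not given in the sources used here.

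Il1rn, the receptor antagonist gene, had the narrowest spread of the higher genes. Its counts were 1533, 644 and 1129 in WT and 3451, 1238 and 1832 in Sdha-KO libraries, or 188, 143 and 144 CPM against 288, 230 and 273 CPM. Every Sdha-KO library lay above every WT library, and the ratio of Sdha-KO to WT was 1.53, 1.61 and 1.90 in batches 1 to 3. The means were 158 ± 25.7 and 264 ± 30.0 CPM (SD, n = 3), with a log2 fold change of 0.74 (SE 0.353). It was 0.82 in batches 2 and 3 (edgeR adjusted p = 0.306). Blocked on the replicate number there, a fit with 1 residual degree of freedom, its adjusted p was 0.0558 (edgeR).

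The balance of agonist to antagonist counts within a library does not depend on scaling. Of the summed Il1b and Il1rn counts, Il1b made up 27.4%, 43.7% and 75.7% in WT against 65.4%, 73.7% and 72.6% in Sdha-KO libraries. The exact Clopper-Pearson 95% intervals, which cover counting error only, were 25.6% to 29.4%, 40.8% to 46.6% and 74.5% to 77.0% in WT libraries, and those of the Sdha-KO libraries lay between 64.5% and 74.9%. The genotypes overlapped, because WT replicate 3 had the highest share of all 6 libraries. Within batches the share was higher in Sdha-KO in batches 1 and 2 and lower in batch 3.

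**Figure D2:**
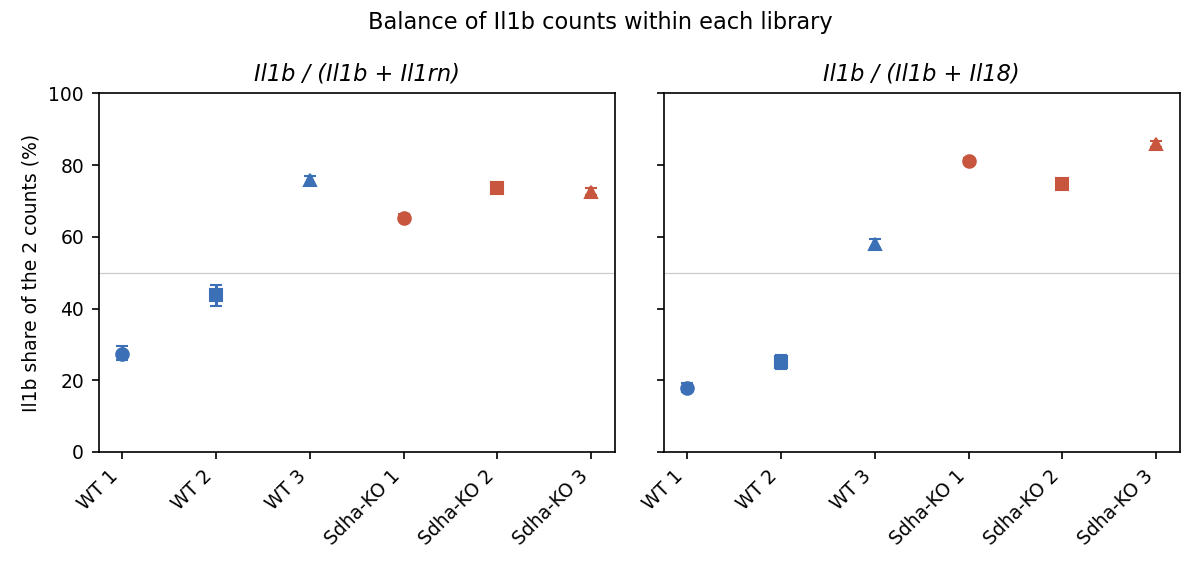
Share of Il1b in the summed counts of Il1b and Il1rn (left) and of Il1b and Il18 (right), in % per library, with exact 95% Clopper-Pearson intervals; blue points are WT and red points Sdha-KO. In the left panel WT replicate 3 (75.7%) lies above the Sdha-KO libraries, and in the right panel all 3 Sdha-KO libraries (74.8% to 86.0%) lie above the WT libraries (18.0% to 58.0%). The separation in the right panel follows from that of Il1b and of Il18 alone.

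Il18 encodes the second cytokine that caspase-1 activates. It went the other way from Il1b. WT levels were nearly equal, at 325, 332 and 324 CPM (2649, 1496 and 2548 counts), and Sdha-KO levels were 127, 216 and 118 CPM (1518, 1164 and 793 counts). All 3 Sdha-KO libraries lay below all WT libraries, and WT was 2.56-fold, 1.53-fold and 2.74-fold higher in batches 1 to 3. The means were 327 ± 4.31 and 154 ± 54.5 CPM (SD, n = 3), and the log2 fold change was -1.09 (SE 0.368). With library totals alone, by which the WT levels were less alike, it was -0.83 (SE 0.455). Il18 passed in batches 2 and 3 with the replicate block (log2 fold change -1.03, edgeR adjusted p = 0.0207), where 3.01% of tested genes passed (1.65% higher and 1.36% lower), and not in the same libraries without it (adjusted p = 0.382). By mean level Il18 ranked above Il1b and Il1rn in WT, although Il1b was higher than Il18 in WT replicate 3, and the ranges of Il1b and Il1rn overlapped. In Sdha-KO libraries Il1b was highest, then Il1rn and then Il18, and these 3 ranges did not overlap. As a 3′ kit gives about 1 fragment per transcript, these CPM levels were compared between genes without a length correction. Of the summed Il1b and Il18 counts, Il1b made up 18.0%, 25.1% and 58.0% in WT and 81.1%, 74.8% and 86.0% in Sdha-KO libraries. The lack of overlap in this share follows from that of Il1b and of Il18 alone and is no further result.

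The receptor genes were low, and none had a count in either batch 1 library. Il1r2, the decoy receptor gene, had 25 and 24 counts in the WT libraries of batches 2 and 3, against 316 and 305 in the Sdha-KO libraries. These were 5.55 and 3.06 CPM against 58.8 and 45.5 CPM, 10.6-fold and 14.9-fold higher in Sdha-KO in batches 2 and 3. The 6-library log2 fold change of 3.60 had an SE of 2.46. In batches 2 and 3 it was 3.62 (SE 0.560, edgeR adjusted p = 0.0590), where 0.251% of genes passed. With the replicate block it was 3.65 and passed (edgeR adjusted p = 0.00079), where 3.01% of genes passed. In batch 1 the count of 0 allows up to 0.368 CPM in WT and 0.250 CPM in Sdha-KO, for counting error only. Of 1725 genes with at least the Il1r2 count in each library of batches 2 and 3, 1.86% were at 0 in WT replicate 1 and 6.43% in Sdha-KO replicate 1. This is the gene whose window, shown above, held 6 ACGTG matches over both strands, and a link between them and its level was not tested.

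Il1r1, the signalling receptor gene, had 1 and 20 counts in WT against 65 and 34 in Sdha-KO libraries of batches 2 and 3, at most 12.1 CPM. Its log2 fold change of 2.60 had an SE of 2.81. Il1rap, the accessory chain gene, had 36 and 37 counts in WT and 22 and 6 in Sdha-KO libraries of the same batches, with a log2 fold change of -1.35 (SE 2.69). In batches 2 and 3 neither passed (edgeR adjusted p = 0.698 for Il1r1 and 0.901 for Il1rap). Exons of Il1rap overlap those of Gm20319 on the other strand, whose row held 0 to 19 counts. Of the 2 receptor counts in a library, Il1r2 made up 96.2% (exact 95% interval 80.4% to 99.9%) and 54.5% (38.9% to 69.6%) in WT replicates 2 and 3. In Sdha-KO replicates 2 and 3 it made up 82.9% (78.8% to 86.6%) and 90.0% (86.3% to 92.9%). The decoy thus had more counts than the signalling receptor in all 4 libraries, with WT replicate 3 at an interval that includes equal counts.

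Among inflammasome genes, the fitted difference was negative for the protease gene and positive for the sensor and adaptor genes. None of the 3 passed, all 3 were lower in Sdha-KO in batch 1 and by limma-voom, and the contrast between them was not tested. Casp1 had 298, 321 and 316 counts in WT libraries and 0, 166 and 93 in Sdha-KO libraries, or 36.5, 71.2 and 40.2 CPM against 0, 30.9 and 13.9 CPM. All Sdha-KO libraries lay below all WT libraries, and in batches 2 and 3 WT was 2.31-fold and 2.90-fold higher. The log2 fold change was -1.73 (SE 1.64), and -1.31 (SE 0.534, edgeR adjusted p = 0.471) in batches 2 and 3. The 0 in Sdha-KO replicate 1 allows up to 0.250 CPM, for counting error only. Of 1469 genes with at least the Casp1 count in each library of batches 2 and 3, 6.47% were at 0 there.

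Nlrp3, the sensor gene, had 44.5, 48.2 and 55.6 CPM in WT and 21.6, 121 and 73.8 CPM in Sdha-KO libraries. Sdha-KO replicate 1 was the lowest and replicate 2 the highest of all 6, so that the groups overlapped. The log2 fold change was 0.54 (SE 0.717), -0.041 without Sdha-KO replicate 2 and -0.14 by limma-voom. Pycard, the adaptor gene, behaved alike, with 8.95, 24.6 and 24.7 CPM in WT and 4.59, 50.2 and 56.6 CPM in Sdha-KO libraries (log2 fold change 0.93, SE 1.37, and -0.30 by limma-voom). In batches 2 and 3 Sdha-KO was higher for both, by log2 fold changes of 0.92 (SE 0.351, edgeR adjusted p = 0.448) and 1.13 (SE 0.389, adjusted p = 0.396). Exons of Pycard overlap those of a gene model on the other strand, Gm45205.

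Over the 10 genes, 7 had a positive and 3 a negative log2 fold change, with a median of 0.84, beside 4483 of 9963 positive and a median of -0.13 over all tested genes. Sdha-KO was higher in 3 of 3 batches for 3 genes (Il1a, Il1b and Il1rn; 11.4% of tested genes) and lower in 3 of 3 for 2 (Il18 and Casp1; 19.9%). In batches 2 and 3, all 10 were without overlap, 7 above and 3 below, where 20.1% and 23.8% of tested genes were. Compared within each of these batches, Sdha-KO was higher in both for the same 7 (27.4% of tested genes) and lower in both for the same 3 (32.3%). There the median was 1.02, and none passed without the block (8 of 10 at an unadjusted edgeR p under 0.05, beside 1099 of 10757 tested genes). With the block, a fit with 1 residual degree of freedom, Il1r2 and Il18 passed, as did 3.01% of tested genes. Over the alternatives run, adjusted p-values lay between 0.0207 and 1.00 for Il18, between 0.00079 and 1.00 for Il1r2 and between 0.0558 and 1.00 for Il1rn. Since 2 libraries per genotype fall apart easily, and the mix of sexes went with genotype in them, these counts are a description.

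**Figure D3:**
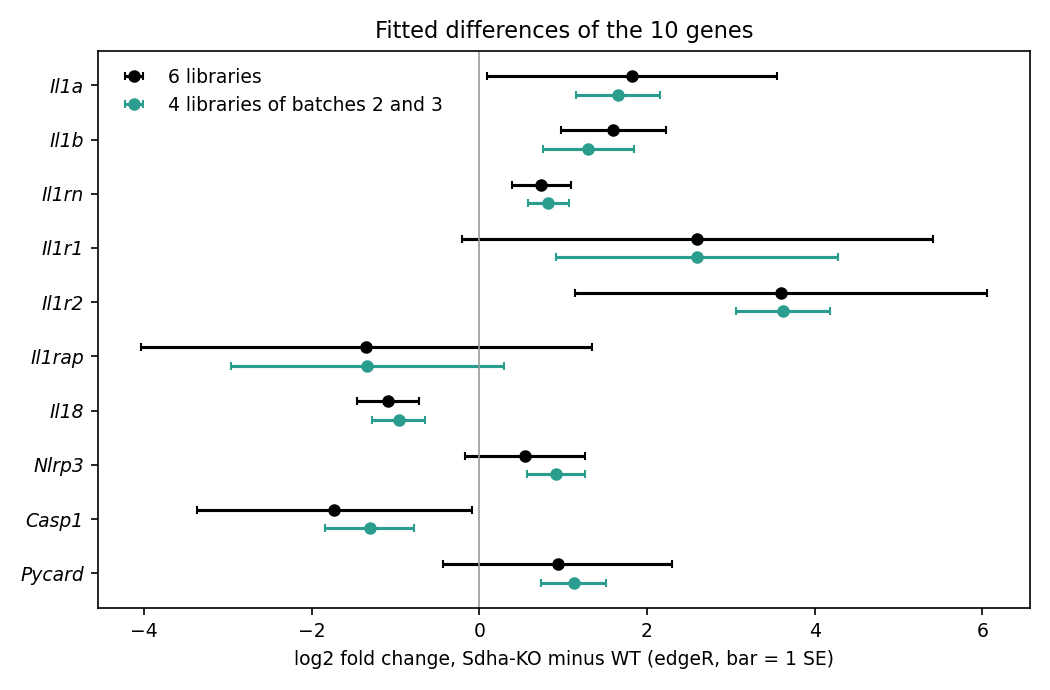
Fitted log2 fold changes (Sdha-KO minus WT) of the 10 genes with all 6 libraries (black) and with the 4 libraries of batches 2 and 3 (green); bars are 1 SE. The direction was the same in both fits for each gene, and the SE of Il1r2 was 2.46 with 6 libraries and 0.560 with 4.

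Other parts of the pathway were examined through 7 lists, in none of which a gene passed with 6 libraries (edgeR, 0.0502% of all tested genes). Among other interleukin-1 family ligands none of 6 rows passed the filter on low counts. Il33, the alarmin of epithelial cells, had 14 counts in WT replicate 3 and 1 in Sdha-KO replicate 2, and Il1f6 (interleukin-36α) had 6 in WT replicate 3. Of 8 rows of other family receptors and binding proteins, 4 were tested, 2 positive and 2 negative (median log2 fold change -0.29). Il1rl2, the interleukin-36 receptor gene, had 26.2 and 10.6 CPM in WT against 8.74 and 2.83 CPM in Sdha-KO libraries of batches 2 and 3. Il18rap, the accessory chain of the interleukin-18 receptor, had 3.33 and 0.127 CPM against 13.8 and 8.496 CPM. Both were at 0 in batch 1.

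Of the signalling genes downstream of the receptor, 7 of 16 had a positive log2 fold change, and their median of -0.14 was near the -0.13 of all tested genes. Peli1, a ubiquitin ligase of the IRAK complex, had 67.9 ± 28.9 CPM in WT and 81.4 ± 15.3 CPM in Sdha-KO libraries. Ikbkb, the catalytic IκB kinase subunit gene, had 63.2 ± 11.02 and 70.5 ± 14.8 CPM. Peli2, the member with the smallest unadjusted p, had 35.3 ± 37.7 and 16.9 ± 13.4 CPM (SD, n = 3 each), and its count is uncertain because its exons overlap a pseudogene on the same strand. Its direction turned on batch 1: in batches 2 and 3 it had 15.5 and 11.7 CPM in WT against 26.4 and 22.7 CPM in Sdha-KO (log2 fold change 0.86, against -1.07 with 6 libraries). There Peli1 and Ikbkb had log2 fold changes of 0.09 and -0.13.

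Of the other inflammasome sensors, 6 of 7 tested members had a negative log2 fold change (median -1.28) and none passed. In Sdha-KO replicate 1, 10 of the 12 rows were at 0. With batches 2 and 3 alone, 5 of 8 were negative (median -1.13), beside 5298 of 10757 tested genes positive. Nlrc4, which with NAIP proteins senses bacterial flagellin and secretion system parts, had 37.3, 40.8 and 45.7 CPM in WT and 11.3, 13.6 and 5.07 CPM in Sdha-KO libraries. Its groups did not overlap (log2 fold change -2.04, SE 1.37), and it passed in batches 2 and 3 with the replicate block (edgeR adjusted p = 0.0453). The DNA sensor gene Aim2 had 176, 58.4 and 71.0 CPM in WT and 0, 72.9 and 91.8 CPM in Sdha-KO libraries. Naip2 had 75.5, 84.5 and 57.0 CPM against 0, 104 and 70.9 CPM. Both were at 0 in the Sdha-KO library of batch 1, and batches 2 and 3 alone gave log2 fold changes of 0.36 and 0.32. Naip genes are near copies of each other, so how reads were split between them is uncertain.

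Among inflammasome partners and pore-forming effectors, 5 of 13 tested members were positive (median log2 fold change -0.33). Capn1, a calpain subunit gene of the protease class that trims interleukin-1α, had 107 ± 9.34 CPM in WT and 57.7 ± 16.96 CPM in Sdha-KO libraries (log2 fold change -0.89, SE 0.514) with no overlap. Capn2, of the same class, had 101 ± 25.2 and 148 ± 55.6 CPM. Casp8 had 95.03 ± 38.8 and 96.1 ± 112 CPM (SD, n = 3 each). The log2 fold changes of Capn1, Capn2 and Casp8 in batches 2 and 3 were -1.05, 0.93 and 0.31, and none of them passed. Txnip, a thioredoxin-binding protein reported to engage NLRP3 and chosen here after its values were seen, had 65.6, 215 and 112 CPM in WT and 0, 65.8 and 48.3 CPM in Sdha-KO libraries. It passed in batches 2 and 3 with the replicate block (log2 fold change -1.45, edgeR adjusted p = 0.00357). The counts of Capn1, Capn2 and Txnip are uncertain, since exons of each overlap an antisense gene.

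Of the genes that interleukin-1 signalling induces, 10 of 11 tested members had a positive log2 fold change; their median was 1.41, and 1.33 in batches 2 and 3 (10 of 11). These genes answer to many other stimuli, and several lie in the same NF-kB response as Il1b itself. Nfkbia, the NF-kB inhibitor gene, had 427, 782 and 1881 CPM in WT and 2154, 3636 and 3961 CPM in Sdha-KO libraries, with no overlap (log2 fold change 1.66, SE 0.516). The neutrophil chemokine gene Cxcl2 had 58.1, 788 and 1109 CPM against 464, 3123 and 1598 CPM, with overlap. Cxcl1, of the same kind and chosen after its values were seen, had 31.7, 33.1 and 21.4 CPM against 52.7, 126 and 133 CPM. It passed in batches 2 and 3 with the replicate block (log2 fold change 2.30, edgeR adjusted p = 0.000252). Tnf, also chosen after its values were seen, had 85.3, 52.2 and 253 CPM against 214, 463 and 314 CPM, again with WT replicate 3 the highest of the WT libraries. In batches 2 and 3 the log2 fold changes of Nfkbia, Cxcl2 and Tnf were 1.53, 1.33 and 1.36 (edgeR adjusted p = 0.245, 0.250 and 0.509).

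In the succinate and HIF-1 list, 7 of 8 tested members were positive (median log2 fold change 1.82, and 1.40 with 6 of 8 in batches 2 and 3). Hif1a had 0.858, 35.7 and 29.5 CPM in WT and 108, 31.8 and 16.5 CPM in Sdha-KO libraries, so its higher mean came from batch 1. Without both batch 1 libraries its log2 fold change was -0.42. Exons of Hif1a overlap other gene models, so its count is uncertain. Egln1, a prolyl hydroxylase that marks HIF-1α for degradation, had 29.3 ± 25.0 and 32.1 ± 22.1 CPM (SD, n = 3 each). These near-equal means hid opposite batches: Egln1 had 58.1 CPM in WT against 9.26 CPM in Sdha-KO in batch 1, and 13.5 and 16.3 CPM against 53.4 and 33.7 CPM in batches 2 and 3 (log2 fold change 1.55, edgeR adjusted p = 0.349). Its HIF-induced relative Egln3 had 0, 1 and 0 counts in WT and 602, 85 and 47 counts in Sdha-KO libraries. Egln3 was thus nearly absent from WT and present in every Sdha-KO library, and did not pass (edgeR adjusted p = 1.00, and 0.288 in batches 2 and 3). Slc2a1, a glucose transporter gene that HIF-1 induces, was chosen after its values were seen. It had 0, 6.66 and 7.64 CPM in WT and 19.2, 44.8 and 65.3 CPM in Sdha-KO libraries, without overlap, and passed in the blocked fit of batches 2 and 3 (edgeR adjusted p = 0.00223). In the fit of those batches without the block, Nlrc4, Txnip, Cxcl1 and Slc2a1 did not pass (edgeR adjusted p = 0.273, 0.250, 0.0590 and 0.0710). Of all genes tested there, 3.01% passed with the block and 0.251% without it. The succinate receptor gene Sucnr1 had 2 counts in Sdha-KO replicate 2 and none elsewhere, which was too few to test.

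**Figure D4:**
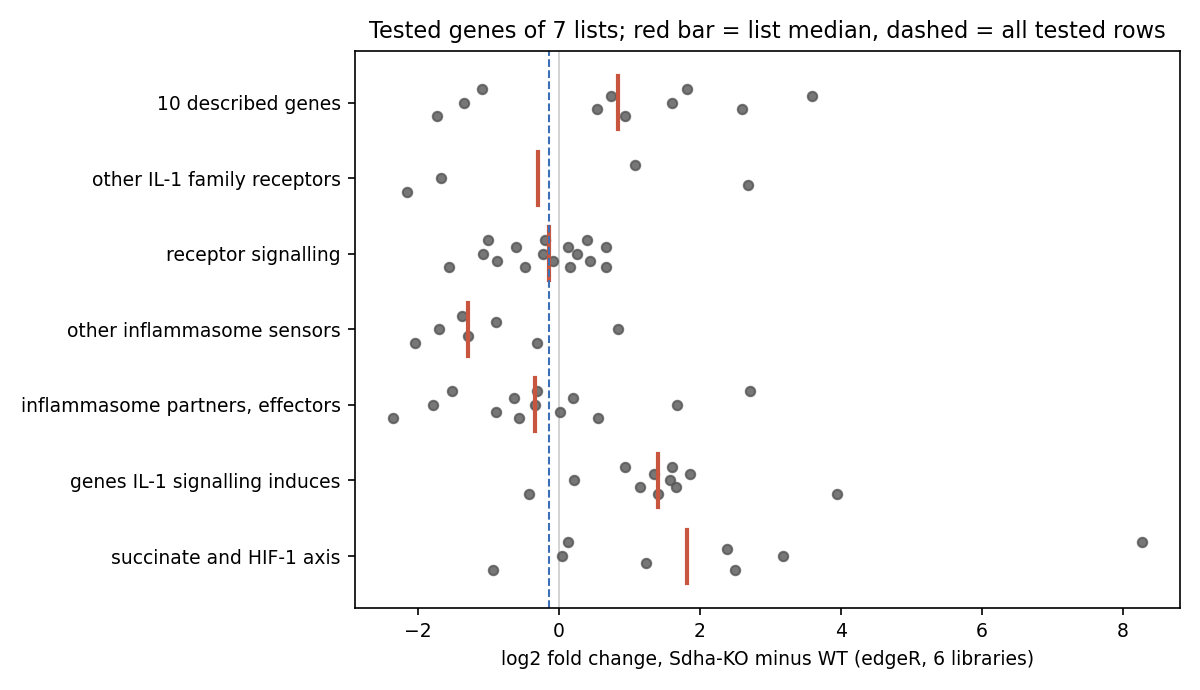
Fitted log2 fold changes (edgeR, 6 libraries) of the tested genes in 7 lists, 1 point per gene; red bars are list medians and the dashed line is the median of all 9963 tested genes (-0.13). Points of the induced genes and of the succinate and HIF-1 list lie mostly right of the line and those of the other sensors mostly left; Egln3, at 8.28, had 1 count over all WT libraries, so its position depends on the fit's prior count.

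The genes with a pattern most like that of Il1b were found by Pearson's correlation of log2 CPM over the 6 libraries, among 6550 tested genes with a mean of at least 10 CPM. Those with the highest values were Nfkbia (0.98), the chemerin-binding receptor gene Ccrl2 (0.98), Spop (0.97) and the NF-kB regulator gene Nfkbid (0.95). Ccrl2 had 51.7, 69.9 and 146 CPM in WT and 227, 308 and 252 CPM in Sdha-KO libraries. Nfkbid had 7.35, 9.10 and 43.4 CPM against 45.6, 61.2 and 31.0 CPM. The 6 points share the genotype difference and the depth of each library, so these values are a description of likeness. In Nfkbia, Ccrl2 and Nfkbid, as in Il1b, WT replicate 3 stood above the other WT libraries.

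Markers of other cells that express interleukin-1 genes moved with genotype in part. The summed level of 10 neutrophil marker rows was 81.0 to 111 CPM in WT and 179 to 238 CPM in Sdha-KO libraries, with no overlap. The most abundant of them, S100a8, had 54.1 ± 32.8 CPM in WT and 67.1 ± 9.14 CPM in Sdha-KO libraries, and Mmp8 had 18.6 ± 3.62 and 49.8 ± 38.8 CPM (SD, n = 3 each). All 5 neutrophil markers tested with 6 libraries had a positive log2 fold change. Of 2 neutrophil receptor genes chosen after their values were seen, Csf3r had 0, 25 and 35 counts in WT and 1, 0 and 0 in Sdha-KO libraries. Cxcr2 had 4, 52 and 7 counts in WT and 57, 435 and 191 in Sdha-KO libraries. In the blocked fit of batches 2 and 3, Cxcr2 passed (log2 fold change 3.75, edgeR adjusted p = 0.00187) and Csf3r did not (log2 fold change -7.92, edgeR adjusted p = 0.591). Summed markers of conventional dendritic cells were 19.98, 20.9 and 39.9 CPM in WT and 5.17, 86.3 and 202 CPM in Sdha-KO libraries, with 7 of 9 at 0 in each batch 1 library. Monocyte markers summed to 78.2 to 136 CPM and 76.2 to 135 CPM, interstitial macrophage markers to 133 to 394 CPM and 125 to 267 CPM, and lymphocyte markers to at most 33.4 CPM. Csf1r was the largest part of the interstitial sum in every library, and Fn1 that of the monocyte sum in every WT library. Both had lower means in Sdha-KO. Ccr2, a monocyte receptor gene, had 5.39, 13.1 and 21.5 CPM in WT against 79.03, 27.7 and 68.1 CPM in Sdha-KO, with no overlap. It lay above Fn1 in every Sdha-KO library, as Itgam did in Sdha-KO replicate 2, so the similar monocyte sums were made up differently in the genotypes. Of the 6 interstitial markers 5 had a positive log2 fold change and lay above WT in batches 2 and 3, where 20.1% of tested genes did. Among these C1qb, a complement gene chosen after its values were seen, had 2.22 and 4.71 CPM against 35.1 and 38.2 CPM there. It passed in the blocked fit (edgeR adjusted p = 0.00974), where 1.65% of tested genes passed as higher in Sdha-KO. Eosinophil markers were at or below 0.222 CPM in every library. Lung epithelial markers summed to 211, 231 and 386 CPM in WT and 71.5, 134 and 685 CPM in Sdha-KO libraries, with overlap. Scgb1a1 alone made up 427 CPM of the sum in Sdha-KO replicate 3. Early genes that tissue dissociation induces summed to 4206, 3708 and 5812 CPM in WT and 5240, 6490 and 6704 CPM in Sdha-KO libraries, and WT replicate 3, highest of the WT libraries in Il1b, was highest of them here too. Of these 14 genes, 7 were higher in Sdha-KO in 3 of 3 batches (11.4% of tested genes) and 3 lay above WT without overlap (5.04%). In the blocked fit of batches 2 and 3, 5 passed as higher and 0 as lower, beside 1.65% and 1.36% of tested genes. In bulk RNA, more cells of a type and more RNA per cell cannot be told apart, and the part of these markers in the results above was not tested.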

How the data were processed

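RNA was measured in 3 WT and 3 Sdha-KO libraries made, per the labels' protocols, with TRIzol and a QuantSeq 3′ mRNA kit, which counts transcripts near their 3′ ends. The authors deposited a table of raw counts, with gene symbols as rows and libraries as columns. Per the submitters' processing notes, Bowtie2 and bedtools were used with mm10. Tool versions, the annotation, the treatment of multiple matches and the strand setting were not given in the sources used here. Of 23282 rows, 7901 were 0 throughout and 44 repeated a symbol and were kept. No pair of libraries was alike within counting noise (chi-square divided by its degrees of freedom was 39.4 or more).

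Genotypes were compared with edgeR 4.0.16 (filterByExpr with a minimum count of 10, TMM, robust quasi-likelihood) in R 4.3.3, with Benjamini-Hochberg adjustment over all 9963 tested genes and a threshold of 0.05. The SE is the log2 fold change divided by the square root of F. Correlations used log2 CPM with a prior count of 2. Scripts were tested on simulated data of smaller spread than these libraries, so power at their real spread was not tested. The biological coefficient of variation that edgeR fitted was 1.4 with 6 libraries and 0.677 without both batch 1 libraries. The labels give each replicate number again as a batch, so libraries of equal number were treated as pairs. Deviations from group means correlated at 0.165, 0.135 and 0.132 for equal numbers and -0.165 to 0.127 for others. The members, lists, tests and alternatives were chosen with earlier results of these data known. Genes were named by rule: the 10 members, and from each pathway list those past the threshold, else the 2 most abundant and the 1 with the smallest p. The rule also names the 5 genes with a pattern most like that of Il1b, of which 1 is not reported here. The text marks those picked after seeing their values. Alternatives used RLE factors, library totals, 2 other filters, DESeq2 1.42.0, limma-voom (limma 3.58.1), the replicate block, and leaving out each library or both batch 1 libraries. Gene positions are from GENCODE M21.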

Additional observations from a re-analysis of the deposited data

How the results depend on the processing

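Over 15 alternatives (14 for Il1r1, Il1r2 and Il1rap, which the filter of at least 10 counts in all 3 libraries of a group removed), 8 of the 10 genes kept the direction of their fitted difference in each, the exceptions being Nlrp3 (-0.14 by limma-voom, and -0.041 to 0.98 on leaving out single libraries) and Pycard (-0.30 by limma-voom). The number of the 10 genes that passed edgeR's test was 0 as reported, 1 with no filter on low counts and 2 in batches 2 and 3 with the replicate block, and it ran from 0 to 1 on leaving out single libraries (Il1b passed without WT replicate 3). Over all genes 5 passed as reported, 9 with library totals alone, 48 with no filter, 0 with the stricter filter (255 at an unadjusted p under 0.05), 21 by DESeq2, 20 by limma-voom, 0 with the replicate block (296 at an unadjusted p under 0.05), 27 without both batch 1 libraries and 324 without them and with the block, and 0 to 13 on leaving out single libraries (0 without WT replicate 1, with 340 at an unadjusted p under 0.05, 12 and 13 without WT replicates 2 and 3, and 3, 7 and 2 when Sdha-KO replicates 1, 2 and 3 were left out in turn). The cause of these differences was not tested. Library totals alone moved the median over all tested genes (log2) from -0.13 to 0.05, and put 9 of 9 passing genes higher against 4 of 5. Limma-voom moved that median to -0.65 and the block to -0.48. Under those, Nlrp3 and Pycard were both above the median of all genes. The block changed no call among the 10 genes with 6 libraries. Depth limits the receptor genes, which had no count in batch 1: with 6 libraries their SE was 2.46 to 2.81 on the log2 scale.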
